A study of Mus musculus with 8 samples.

Results

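Genes of the endothelial ETS transcription factors were examined in the E9.5 mouse yolk sac, in embryos with altered endothelial Notch signaling. The genes were named by symbol: Erg, Fli1, Ets1, Ets2, Elk3, Etv2, Etv6, Elf1 and Gabpa. They make up 9 of the 18194 genes measured and are read by 22 of the 45101 probe sets on the array. Where a gene had several probe sets, the one with the highest mean over the 8 arrays was read and the others were kept as a check, and 8 of the 9 genes passed a filter on low signal and entered the test. ETS factors bind DNA through a shared domain that recognises a GGAA core. In blood vessels they work in combination: Etv2 starts the endothelial and blood lineages in the early embryo, Erg, Fli1 and Ets1 keep up the endothelial program, and Elk3 and Etv6 act mainly as repressors. Notch signaling in the same cells works through RBPJ, a DNA binding protein that activates target genes together with the cleaved Notch receptor.

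RNA came from yolk sac tissue, not from sorted cells, and was measured on 2 arrays in each of 4 groups. The EC-N1ICD embryos (Tie2 Tg/0; ROSA +/N1ICD, strain C57BL6) carried a Tie2-Cre transgene, active in endothelium and in blood lineages, that switches on the intracellular domain of Notch1 from the ROSA locus. They were set against embryos of the same strain with neither the transgene nor the N1ICD allele (Tie2 0/0; ROSA +/+). The EC-Rbpj-KO embryos (Tie2-Cre; Rbpj flox/flox, strain mixed) lacked the DNA binding part of RBPJ in the Cre-expressing cells. They were set against wild type embryos of their own set, for which no genotype is given. That the arrays of a group came from separate embryos is not stated, so p-values measure the spread between arrays. In both sets the name of mutant replicate 1 opens with another number than the names of the other 3 arrays, and the labels do not say what that number stands for. Where values are given for 2 arrays, they stand in the order replicate 1, replicate 2.

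The altered genes and a Notch target were checked first. Notch1, whose intracellular domain is switched on in EC-N1ICD, had 455 and 538 there and 453 and 335 in wild type. Its log2 fold change was 0.34. On a second probe set, with 143 and 183 against 173 and 96, the groups overlapped. The signal of Rbpj was 470 and 497 in EC-Rbpj-KO yolk sacs and 984 and 919 in their wild type (log2 fold change -0.98, adjusted p = 0.00866, limma), and Hey1, a direct Notch target, had 319 and 298 in EC-N1ICD yolk sacs and 147 and 103 in theirs. With Rbpj lost Hey1 had 66 and 69, compared with 72 and 70 in wild type (log2 fold change -0.073, adjusted p = 0.906, limma). Female transcripts marked 3 arrays, both of EC-N1ICD and replicate 1 of EC-Rbpj-KO, and the other arrays carried male ones, so embryo sex moves with the mutants and cannot be told apart from the EC-N1ICD genotype. The ratio of 3' to 5' signal of Gapdh, a sign of RNA quality, was 4.64 and 3.45 in EC-Rbpj-KO and 3.17 and 3.51 in its wild type. In EC-N1ICD it was 2.43 and 2.48, and in its wild type 3.12 and 2.76, without overlap. The same ratio of Actb was lower in EC-N1ICD (1.72 and 1.75, against 2.1 and 2.34) and higher in EC-Rbpj-KO (2.29 and 2.09, against 1.9 and 1.84). The part of RNA quality in either model was not tested. The endothelial markers, 10 genes, had a summed signal of 1861 to 3267 over the 8 arrays, none of them was at 0, and Pecam1 and Emcn lay below the filter.

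The upstream sequences of the genes that follow are shown because they are those of Erg, which had the largest change of the 8 tested genes of the list, of Etv6, whose window holds the same short RBPJ core, and of Etv5, an ETS gene outside the list of 9 that fell in EC-Rbpj-KO yolk sacs. Each is the 250 bases before an annotated start site, from RefSeq on GRCm38.p6. Capitals mark every GGAA, and every TGGGAA, which holds GGAA within it, on either strand (TTCC and TTCCCA where they lie on the other strand).

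Erg, chr16:95459349-95459598, minus strand: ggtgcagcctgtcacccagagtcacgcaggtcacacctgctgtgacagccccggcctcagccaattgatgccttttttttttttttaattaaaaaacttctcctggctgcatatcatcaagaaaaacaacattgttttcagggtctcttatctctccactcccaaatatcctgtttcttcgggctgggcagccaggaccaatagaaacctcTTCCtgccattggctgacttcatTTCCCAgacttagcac
Erg, second start, chr16:95530366-95530615, minus strand: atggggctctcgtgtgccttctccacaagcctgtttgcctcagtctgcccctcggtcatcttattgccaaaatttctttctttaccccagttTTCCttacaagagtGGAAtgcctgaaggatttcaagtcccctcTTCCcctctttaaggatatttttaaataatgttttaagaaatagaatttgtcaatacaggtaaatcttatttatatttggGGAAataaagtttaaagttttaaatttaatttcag
Etv6, chr6:134035450-134035699, plus strand: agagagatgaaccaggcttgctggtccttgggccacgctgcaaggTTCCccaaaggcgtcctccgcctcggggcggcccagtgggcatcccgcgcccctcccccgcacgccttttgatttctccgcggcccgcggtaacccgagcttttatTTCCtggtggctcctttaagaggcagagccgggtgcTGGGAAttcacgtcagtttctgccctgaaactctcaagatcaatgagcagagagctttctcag
Etv5, chr16:22438369-22438618, minus strand: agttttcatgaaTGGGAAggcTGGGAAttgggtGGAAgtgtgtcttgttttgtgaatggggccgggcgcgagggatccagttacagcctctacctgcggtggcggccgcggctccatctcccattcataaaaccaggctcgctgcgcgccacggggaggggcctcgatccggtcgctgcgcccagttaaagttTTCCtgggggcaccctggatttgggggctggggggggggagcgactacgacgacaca

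The short RBPJ core TGGGAA was found in 1 of 3 Erg windows, ending 11 bases before the start, and in the Etv6 window, ending 58 bases before it. Of 10 windows of the 7 listed genes that matched (Elf1, Elk3, Erg, Ets2, Etv2, Etv6 and Gabpa), 2 held it, against 21.6% of 32851 mouse windows of the same length. The longer core GTGGGAA, which the study used to look for RBPJ sites, was in 0 of the 10 windows and in 5.42% of all. GGAA was in 8 of the 10 and in 93.4% of all, and CCGGAAGT, a longer ETS site that holds GGAA, was in 0 of the 10 and in 2.88% of all. In the Etv5 window printed, TGGGAA occurred at 2 positions. The window of another Etv5 start, not printed, held 0 of TGGGAA and 0 of GGAA. Such matches describe the letters only. In the same annotation Erg and Ets2 lie next to each other on chromosome 16 and Ets1 and Fli1 on chromosome 9, with 0 protein-coding genes between the members of each pair.

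None of the 8 tested ETS genes passed the threshold in either model. The test was limma on log2 signal with p-values adjusted over all 10913 genes tested, and the threshold was an adjusted p of 0.05. In EC-N1ICD yolk sacs 0 of 8 were called, where 65 of all genes, 0.596%, were called (0.376% higher, 0.22% lower). In EC-Rbpj-KO yolk sacs 0 of 8 were called, where 541 of all genes, 4.96%, were called (2% higher, 2.96% lower). At an unadjusted p under 0.05, 0 of the 8 passed in EC-N1ICD and 1, Erg, in EC-Rbpj-KO, and the t-test of the study's methods gave 0 in both, also before adjustment. The median log2 fold change of the 8 was -0.0046 with N1ICD active and 0.10 with Rbpj lost, beside medians of 0.013 and -0.024 over all genes tested. The log2 fold changes ran from -0.53 (Fli1) to 0.53 (Etv6) in EC-N1ICD and from -0.25 (Etv6) to 0.97 (Erg) in EC-Rbpj-KO.

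**Figure D1:**
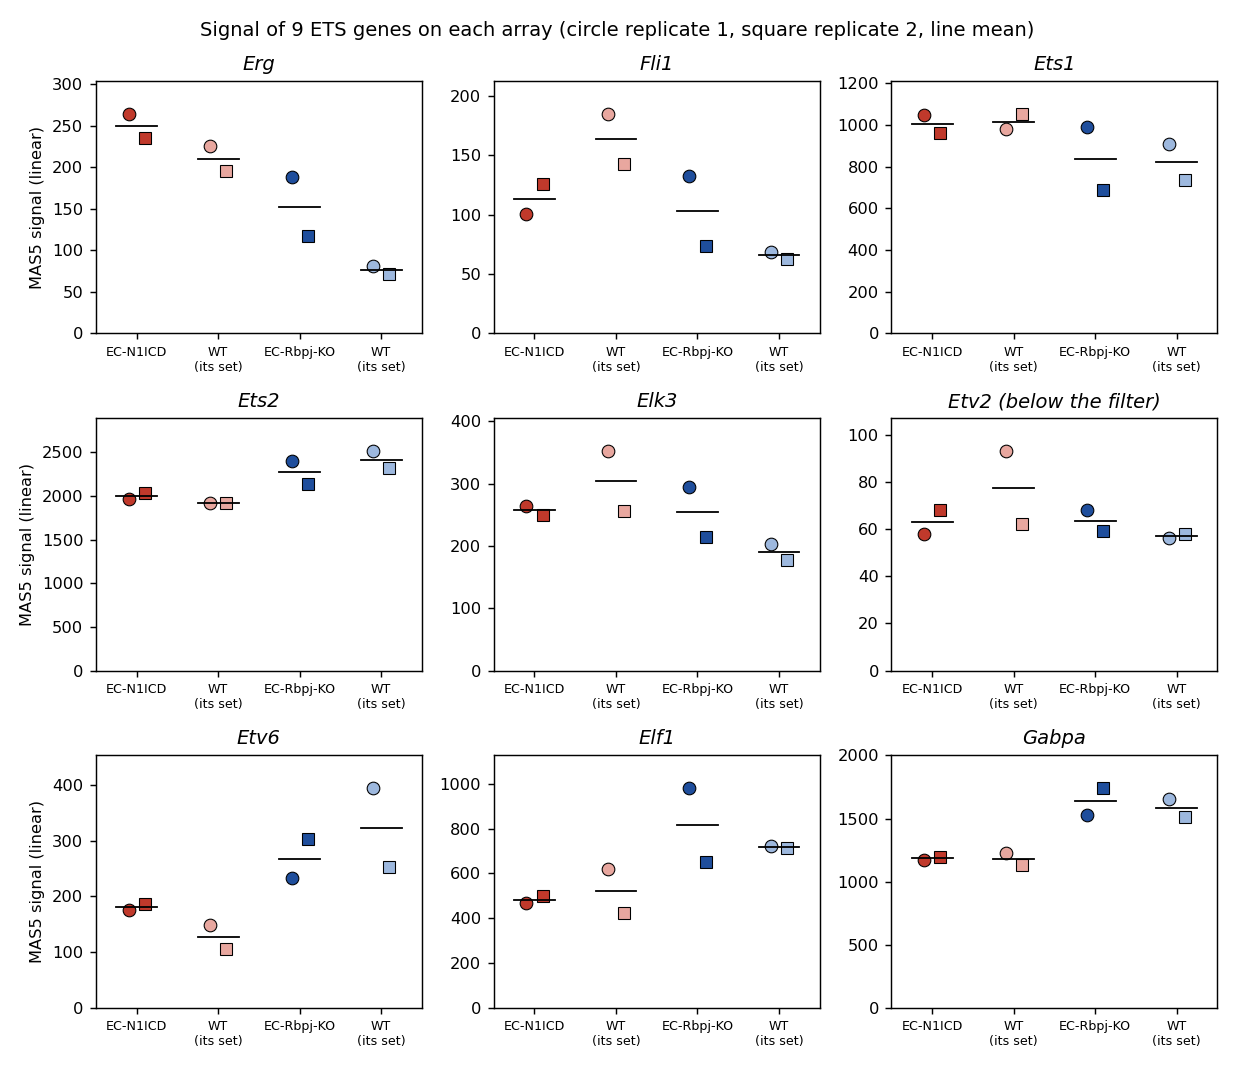
Linear MAS5 signal (y axis) of the 9 ETS genes on each array, by group (x axis), with circles for replicate 1, squares for replicate 2 and a line at the mean of both. Erg lies higher on both EC-Rbpj-KO arrays (188 and 117) than in both wild type samples of their set (81 and 71), while the log2 fold changes of Ets1, Ets2 and Gabpa lie between -0.089 and 0.061 in both models.

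Erg encodes a factor that maintains endothelial identity and vessel stability. With Rbpj lost its signals were 188 and 117, and those of the wild type were 81 and 71. Both mutant arrays lay above both wild type arrays, and replicate 1 was the higher of the mutants. The log2 fold change was 0.97 (SE 0.252, 95% interval 0.415 to 1.52), a fold of 1.96, with an adjusted p of 0.051 (limma), just outside the threshold. RNA of whole tissue cannot tell more endothelial cells from more Erg RNA per cell. On the EC-Rbpj-KO arrays the median of the 8 tested endothelial markers lay 0.47 and 0.20 above the wild type mean on the log2 scale, and Erg itself 1.31 and 0.63. The markers were uneven, and none of the 8 was called: 7 had positive log2 fold changes, among them Kdr and Egfl7 at 0.024 and 0.048, and Tek ran the other way (187 and 181 in EC-Rbpj-KO yolk sacs and 276 and 336 in wild type). Summed over all 10 markers the signal was 2608 and 1861 in EC-Rbpj-KO and 1937 and 1877 in wild type, so the sum of replicate 2 lay below both wild type sums. With every array set to the mean of the 8 tested markers, a choice made after seeing the data, the log2 fold change of Erg was 0.70 (adjusted p = 0.0778, limma). All 10 markers also stand on the list of endothelial ETS targets given below. That value therefore cannot tell more endothelial cells from more Erg RNA per cell.

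Erg passed or missed the threshold with the EC-Rbpj-KO array that was left out. Without replicate 2 the log2 fold change was 1.31 (adjusted p = 0.0167), and without replicate 1 it was 0.63 (adjusted p = 0.179). Replicate 1 is also the array with female transcripts in its group, the one with the highest 3' to 5' ratio of Gapdh, and the number that opens its name is not shared by the other 3 arrays of its set. With embryo sex as a covariate the value was 0.63 (adjusted p = 0.177), which rests on the same arrays as the value without replicate 1 and is no separate value. The value within the shared number is likewise that without replicate 1. The part of sex, RNA quality and the unexplained number in the result was not tested beyond these values. The second probe set of Erg was at 37 and 27 in EC-Rbpj-KO and 24 and 22 in wild type, signals below the medians of all probe sets, which ran from 38 to 51 between arrays.

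In EC-N1ICD yolk sacs Erg had signals of 264 and 235, against 225 and 195 in their wild type. The arrays did not overlap here either, with a log2 fold change of 0.25 (95% interval -0.303 to 0.803, adjusted p = 0.791). With embryo sex as a covariate the value was -0.43 (adjusted p = 0.663, limma). Sex and genotype coincide in this set, so that sex term came only from the 2 EC-Rbpj-KO arrays. The value is therefore no measure of sex in EC-N1ICD. Without replicate 1, the array whose name opens with another number, the log2 fold change was 0.17. The difference between the 2 changes, -0.72 on the log2 scale (95% interval -1.5 to 0.064), did not pass (adjusted p = 0.515). Across the 4 groups the order from high to low was EC-N1ICD, its wild type, EC-Rbpj-KO and its wild type, with no overlap between neighbours in that order. The step between the wild types of the sets, 225 and 195 against 81 and 71, was larger than the step in either model. The sets differ in strain, and strain and set cannot be told apart in that step.

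Fli1, a close relative of Erg that is also needed for megakaryocytes and for blood vessels, gave opposite signs in the 2 models. With N1ICD active the signals were 101 and 126, and those of the wild type were 185 and 143. With Rbpj lost they were 133 and 74, and those of the wild type were 69 and 63. Each EC-N1ICD array lay below each wild type array of its set, and both EC-Rbpj-KO arrays above theirs, by a wide margin only on EC-Rbpj-KO replicate 1. The log2 fold change was -0.53 in EC-N1ICD (95% interval -1.2 to 0.14, adjusted p = 0.557) and 0.59 in EC-Rbpj-KO (95% interval -0.0786 to 1.26, adjusted p = 0.312). The difference between these changes was -1.12 (SE 0.431, adjusted p = 0.373, limma), and it was the only one of the 8 with an unadjusted p under 0.05. Over all genes the difference was called for 29, or 0.266%, and for 0 of the 8 ETS genes. Arrays of mutant and wild type failed to overlap, in either direction, for 42.6% of all genes with N1ICD active and 50.8% with Rbpj lost. Among the 8 tested ETS genes this held for 4 in EC-N1ICD (Erg, Ets2 and Etv6 higher, Fli1 lower) and for 3 in EC-Rbpj-KO (Erg, Fli1 and Elk3, all higher), shares not far from those backgrounds.

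The second probe set of Fli1 had 93 and 151 in EC-N1ICD and 174 and 138 in wild type, where the groups overlap. It had 152 and 69 in EC-Rbpj-KO and 53 and 60 in wild type, where they do not. Markers of blood cells also differed between the groups. The median of the 6 tested megakaryocyte markers lay 1.19 and 0.61 below the wild type mean on the EC-N1ICD arrays, on the log2 scale, with summed signals of 970 and 1586, against 2509 and 3554, and 1 of the 6 fell in the test (Pf4). The median of the 9 tested macrophage markers lay 1.32 and 0.46 above it on the EC-Rbpj-KO arrays, where 3 of the 9 rose and 2 fell, with summed signals over the 10 markers of 4660 and 3402, against 3194 and 2778. Each list moved otherwise in the other model. On the EC-N1ICD arrays the macrophage median lay 0.886 and 0.208 above the wild type mean, where 1 of the 9 rose and 0 fell. Relative to that mean the megakaryocyte median was 0.234 and -0.215 on the EC-Rbpj-KO arrays, with 0 of the 6 called. No megakaryocyte or macrophage marker was at 0 on any array. The part of these cells in the Fli1 signal was not tested.

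**Figure D2:**
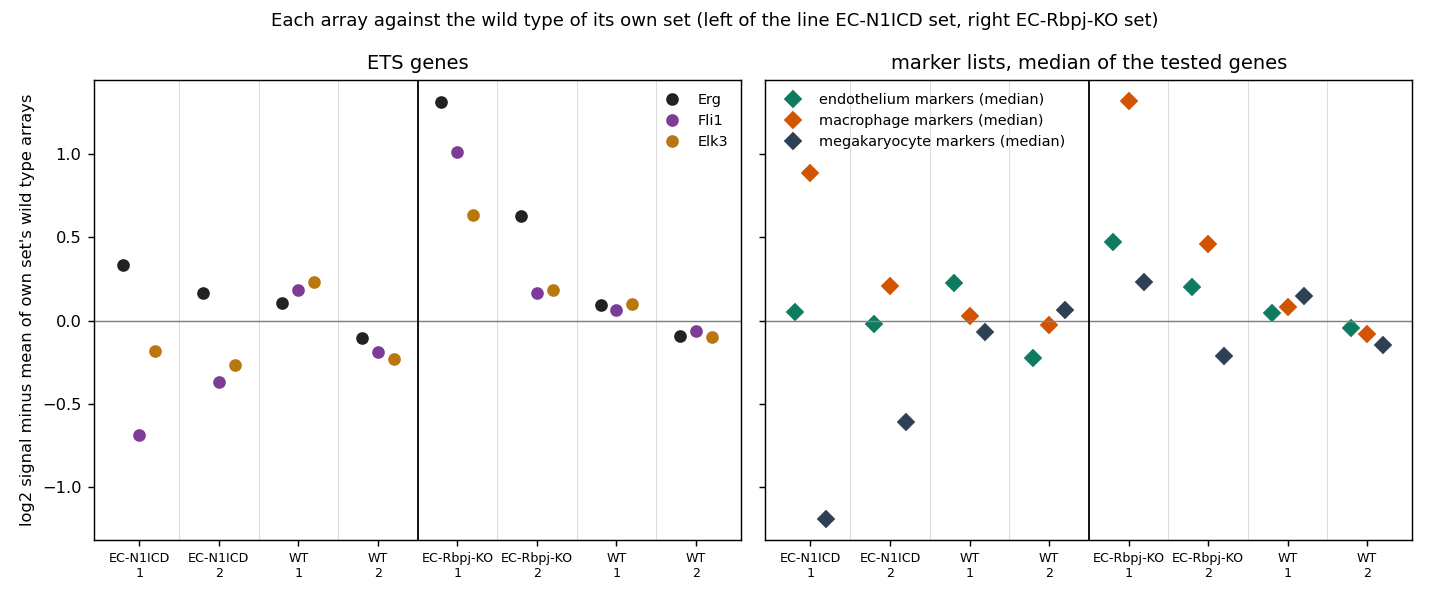
Log2 signal relative to the mean of that set's wild type (y axis) on each of the 8 arrays (x axis), for Erg, Fli1 and Elk3 on the left and as the median of the tested genes of 3 marker lists on the right. Replicate 1 of EC-Rbpj-KO is the highest array for Erg (1.31), Fli1 (1.01) and Elk3 (0.63) and also for the endothelial (0.47) and macrophage (1.32) markers.

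Elk3 encodes a ternary complex factor that represses genes of the serum response until it is phosphorylated. It had 294 and 215 in EC-Rbpj-KO and 203 and 177 in wild type, and in the other set 264 and 250 in EC-N1ICD and 352 and 256 in wild type. The EC-Rbpj-KO arrays lay above their wild type without overlap, with a log2 fold change of 0.41 (95% interval -0.0838 to 0.899, adjusted p = 0.339). In EC-N1ICD the groups overlapped, with -0.22 (95% interval -0.716 to 0.267, adjusted p = 0.787). A second probe set separated the EC-N1ICD arrays, with 98 and 126, from their wild type arrays, with 174 and 193.

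Etv6, a repressor needed for yolk sac vessels and for blood stem cells, had the highest log2 fold change of the 8 in EC-N1ICD. Its signals there were 176 and 187, against 149 and 106 in wild type. The groups did not overlap, and the log2 fold change was 0.53 (95% interval -0.0408 to 1.1, adjusted p = 0.462). In EC-Rbpj-KO yolk sacs the signals were 232 and 302, against 394 and 253, and the groups overlapped (log2 fold change -0.25, 95% interval -0.825 to 0.316, adjusted p = 0.635). The difference between the 2 changes was 0.78 (95% interval -0.0227 to 1.59, adjusted p = 0.482, limma). A second probe set of Etv6 was low, with a mean of 35.1 over the 8 arrays. It had 33 and 32 in EC-N1ICD, compared with 27 and 28 in wild type. In EC-Rbpj-KO it had 27 and 38, compared with 46 and 50 in wild type (log2 fold change -0.58). On it the groups overlapped in neither model.

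Ets1 and Ets2, the founding members of the family, which act downstream of Ras signals, had log2 fold changes near 0. Ets1 had 1047 and 962 in EC-N1ICD, compared with 978 and 1052 in wild type, and 990 and 687 in EC-Rbpj-KO, compared with 909 and 736 in wild type. Mutant and wild type overlapped in both models, with log2 fold changes of -0.015 (95% interval -0.443 to 0.412) and 0.012 (95% interval -0.416 to 0.439). Ets2 had 1962 and 2038 in EC-N1ICD, compared with 1914 and 1919 in wild type, and 2404 and 2141 in EC-Rbpj-KO, compared with 2514 and 2316 in wild type. Its log2 fold changes of 0.061 and -0.089 had the narrowest intervals of the 8, -0.223 to 0.345 and -0.373 to 0.195, so a change of the size seen for Erg lies outside them. Its EC-N1ICD arrays lay above both of their wild type arrays by a small margin, and in the other set the groups overlapped.

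Gabpa and Elf1 encode broadly used factors, Gabpa the DNA binding subunit of GABP, which drives genes of mitochondria and housekeeping, and Elf1 an activator in blood and endothelium. Gabpa had 1171 and 1197 in EC-N1ICD, compared with 1230 and 1130 in wild type, and 1530 and 1740 in EC-Rbpj-KO, compared with 1651 and 1508 in wild type. Elf1 had 466 and 498 in EC-N1ICD, compared with 618 and 422 in wild type, and 981 and 653 in EC-Rbpj-KO, compared with 723 and 715 in wild type. For both genes mutant and wild type overlapped in both models, and all 4 log2 fold changes lay between -0.084 and 0.155.

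Etv2, whose expression in the mouse is brief and begins before this stage, had low signals, though above the array median on every array. They were 58 and 68 in EC-N1ICD, compared with 93 and 62 in wild type, and 68 and 59 in EC-Rbpj-KO, compared with 56 and 58 in wild type. Its mean over the 8 arrays, 65.3, lay under the filter, at a mean signal of 68, and no adjusted p is given for it. The unfiltered log2 fold changes were -0.27 (95% interval -0.926 to 0.378) and 0.15 (95% interval -0.5 to 0.805).

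**Figure D3:**
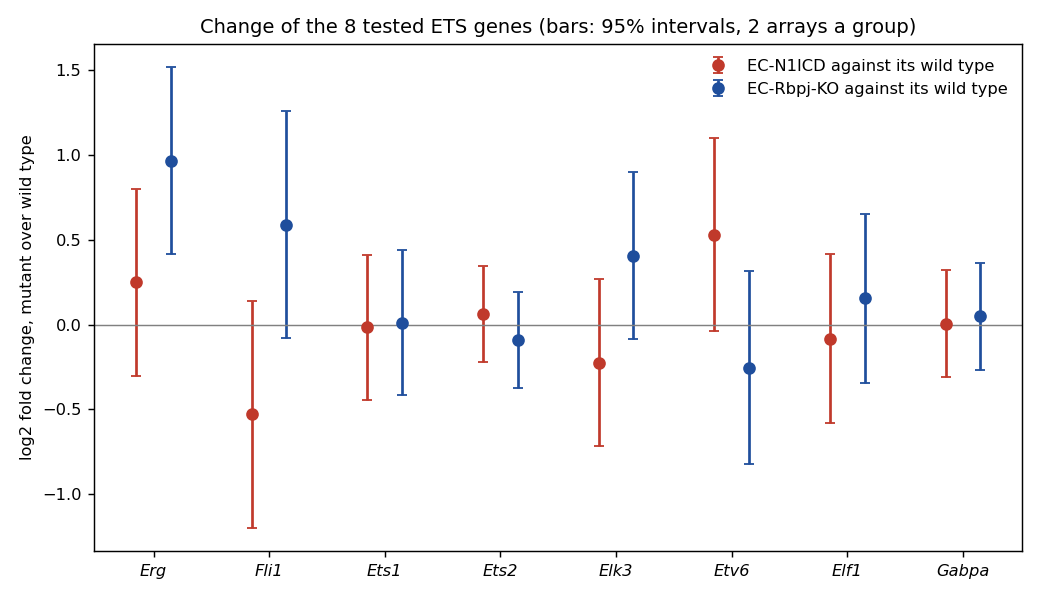
Log2 fold change of mutant over wild type (y axis) for the 8 tested ETS genes (x axis), in EC-N1ICD (red) and EC-Rbpj-KO (blue), with 95% intervals from limma. The interval of Erg in EC-Rbpj-KO, 0.415 to 1.52, is the only one of the 16 that leaves out 0.

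The ETS genes differed in which of them varied together. With each array set against the mean of its own set, Fli1 and Elk3 had a Pearson correlation of 0.90 over the 8 arrays, Elk3 and Elf1 of 0.85, Erg and Elk3 of 0.75 and Erg and Fli1 of 0.63. Etv6 and Fli1 had -0.49, and Erg and Ets2 -0.035. These values describe 8 arrays that share sets, embryo sex and cell makeup. Of all tested genes, those most like Erg were Tmem140 (r = 0.993), Sema3b (r = 0.993) and Igf1 (r = 0.992), with log2 fold changes of 1.09, 1.14 and 1.29 in EC-Rbpj-KO yolk sacs. Genes so picked have the highest r of 10912 compared, so changes like those of Erg follow from the choice. Those most like Fli1 were Otub1 (r = 0.986), Mrc1, a receptor of yolk sac macrophages and of some endothelium (r = 0.985), and Tnpo3 (r = 0.979). Mrc1 had 432 and 548 in EC-N1ICD, compared with 885 and 699 in wild type, and 867 and 321 in EC-Rbpj-KO, compared with 333 and 305 in wild type. The macrophage markers were mixed in EC-N1ICD. Of the 9 tested, 5 had positive log2 fold changes and 4, Mrc1 among them, negative ones. The genes most like Elk3 were Aprt, Arhgef10 and Acvr2b, and those most like Etv6 were Trmt13, Grhl3 and Ecm1. For Ets1 they were Rnf20, Erlec1 and B3galnt1, for Ets2 Agap3, Zfp654 and 2810021J22Rik, for Elf1 S100pbp, Ski and Kiz, and for Gabpa Tspan32, Cpsf4 and Tmc8.

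Among the 18 other ETS genes, 15 were on the array and 7 were tested, and 1 of these 7 fell in EC-Rbpj-KO. Etv5, a factor of the PEA3 group that responds to FGF signals, had 394 and 425 in EC-Rbpj-KO, compared with 1320 and 1361 in wild type. The groups lay far apart, with a log2 fold change of -1.71 (SE 0.205, adjusted p = 0.00145, limma). In EC-N1ICD yolk sacs Etv5 had 695 and 768, against 1430 and 902, also without overlap, with a log2 fold change of -0.64 (95% interval -1.09 to -0.186, adjusted p = 0.214). Its other probe sets had log2 fold changes of -0.77 and -1.34 in EC-Rbpj-KO. In EC-N1ICD they had -0.073 and -0.15, and on both of them mutant and wild type overlapped. Elk4, a relative of Elk3, came to -0.63 in EC-Rbpj-KO (adjusted p = 0.0793), and Elf3, an epithelial ETS factor, to 0.66 in EC-N1ICD (adjusted p = 0.241). The median of the 7 was 0.059 with N1ICD active and -0.067 with Rbpj lost.

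Spib, an ETS factor known from B cells and plasmacytoid dendritic cells, was named after its values were seen. It had 81 and 96 in EC-N1ICD, compared with 23 and 17 in wild type. On the EC-Rbpj-KO arrays it had 17 and 14, against 17 and 18. Its signal thus stood above the array medians on both EC-N1ICD arrays and below them on all others. Its mean lay under the filter. Without a filter its log2 fold change in EC-N1ICD was 2.16 (95% interval 1.59 to 2.73, adjusted p = 0.00464, limma), and with 16 added to every signal, which shrinks the change of low signals, it was 1.54 (adjusted p = 0.00335). The array holds 1 probe set for it, and both arrays on which it was high carried female transcripts, as did EC-Rbpj-KO replicate 1, where it had 17.

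The partners of ETS factors, 17 listed and 14 tested, gave 0 calls in either model with limma (1 with N1ICD active and, with Rbpj lost, 1 higher and 2 lower, at an unadjusted p under 0.05). Mef2c, which acts beside ETS factors on endothelial enhancers, had 319 and 211 in EC-Rbpj-KO, compared with 157 and 137 in wild type, which is 0.82 on the log2 scale (adjusted p = 0.0654). Tal1, the blood and endothelial factor that shares enhancers with Fli1 and Gata2, had 215 and 554 in EC-N1ICD, compared with 773 and 653 in wild type. Its log2 fold change was -1.04 there (adjusted p = 0.257) and -0.82 in EC-Rbpj-KO (adjusted p = 0.236). The erythroid markers, whose cells also use Tal1, had a summed signal of 48517 and 82672 in EC-N1ICD, compared with 95522 and 101360 in wild type.

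Of 31 endothelial genes known as ETS targets, 27 were tested. In EC-Rbpj-KO yolk sacs 3 rose and 1 fell, beside 2% of all genes higher and 2.96% lower. There 22 of the 27 log2 fold changes were positive, with a median of 0.40, where 46.6% of those of all genes were positive, with a median of -0.024. In EC-N1ICD yolk sacs 0 rose and 1 fell, beside 0.376% and 0.22% of all genes, and the median was -0.018. The genes that rose with Rbpj loss were Cldn5, a tight junction protein (log2 fold change 1.62, adjusted p = 0.00369), Sox17, a factor of arterial endothelium and of endoderm (1.39, adjusted p = 0.00186), and Icam2, an adhesion molecule (1.04, adjusted p = 0.0397). Sox17 had 454 and 411 in EC-Rbpj-KO, compared with 157 and 174 in wild type, so the mutant replicates were close to each other. Vwf, the clotting factor of endothelium and platelets, fell (log2 fold change -1.75, adjusted p = 0.00252), with 48 and 56, against 185 and 164. Sox18 (log2 fold change 1.12, adjusted p = 0.051) and Rhoj (1.32, adjusted p = 0.0588) did not pass. All 10 endothelial markers used above stand on this list as well, so it is no measure apart from them. The call of Icam2 was lost when any array other than EC-Rbpj-KO replicate 2 was left out (adjusted p = 0.0503 to 0.249), and without EC-Rbpj-KO replicate 1 its log2 fold change was 0.66.

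Aplnr, the apelin receptor of venous and angiogenic endothelium, was the gene of that list that fell in EC-N1ICD. It had 672 and 725 in EC-N1ICD, compared with 2248 and 1602 in wild type, which is -1.44 on the log2 scale (SE 0.238, adjusted p = 0.0198, limma). Its call rested on all 4 arrays of its set, since leaving out any of them gave adjusted p-values of 0.0657 to 0.194. With embryo sex as a covariate the log2 fold change was -0.69 (adjusted p = 0.376, limma). Sex and genotype coincide in the EC-N1ICD set, so that sex term came only from the EC-Rbpj-KO arrays. The value is therefore no measure of sex in EC-N1ICD. In EC-Rbpj-KO yolk sacs Aplnr had 673 and 1132, against 748 and 694, where the groups overlap.

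**Figure D4:**
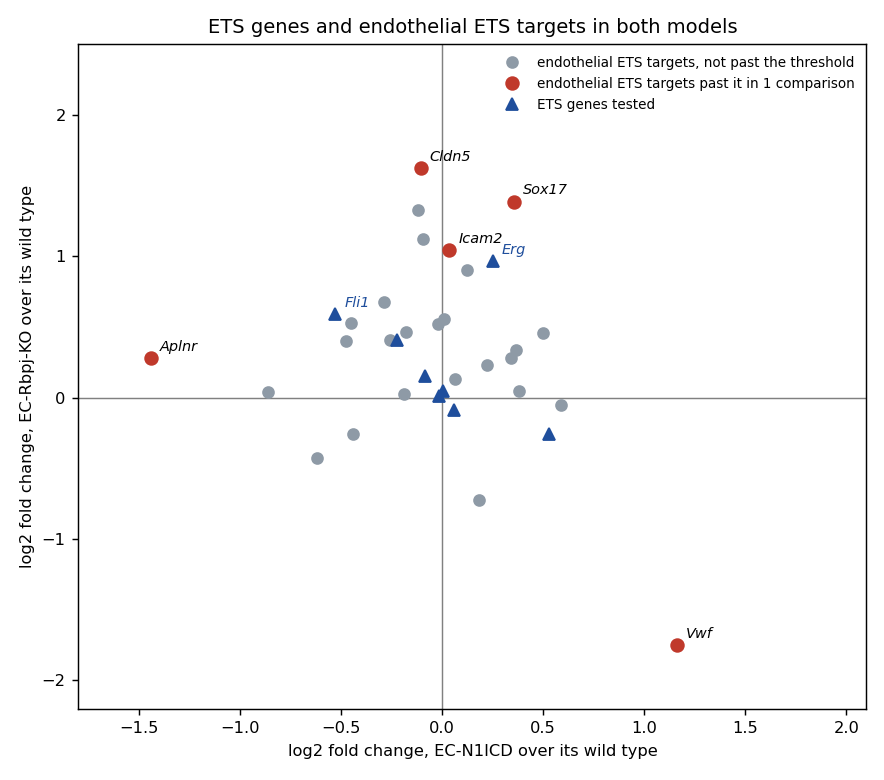
Log2 fold change in EC-N1ICD (x axis) and in EC-Rbpj-KO (y axis), each over its own wild type, for the 27 tested endothelial ETS targets (circles, red where past the threshold in 1 comparison) and the 8 tested ETS genes (triangles). Cldn5, Sox17 and Icam2 lie high on the y axis, at 1.62, 1.39 and 1.04, Vwf lies at -1.75 on it, and Aplnr lies at -1.44 on the x axis.

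Genes of the serum response, which ternary complex factors such as Elk3 control with SRF, were tested at 10 of 13 listed. In EC-Rbpj-KO 1 of the 10 fell and in EC-N1ICD 0 were called (3 were higher at an unadjusted p under 0.05, limma). Junb, a subunit of AP-1, had 32 and 64 in EC-Rbpj-KO, compared with 123 and 134 in wild type, with a log2 fold change of -1.50 (adjusted p = 0.0499, limma) at the edge of the threshold. That call was lost when any array other than EC-Rbpj-KO replicate 2 was left out (adjusted p = 0.0532 to 0.246). Egr1, an immediate early gene, was above wild type on all mutant arrays, with 237 and 310 in EC-N1ICD, compared with 123 and 142 in wild type, and with 249 and 111 in EC-Rbpj-KO, compared with 83 and 93 in wild type. Its log2 fold changes of 1.04 and 0.92 did not pass (adjusted p = 0.21 and 0.144). Cyr61, a matrix protein induced by SRF and YAP, reached a log2 fold change of 1.34 with N1ICD active (adjusted p = 0.177).

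The mitochondrial genes controlled by GABP, 10 listed and tested, gave 0 calls in either model with limma (0 with N1ICD active and 1 with Rbpj lost at an unadjusted p under 0.05), with medians of -0.0070 and -0.042. Tfam, the factor that packs and transcribes mitochondrial DNA, was at -0.59 (log2 fold change) in EC-Rbpj-KO (adjusted p = 0.141), and Sdhb, a subunit of succinate dehydrogenase, at 0.26 in EC-N1ICD (adjusted p = 0.433). Of 8 proteases, inhibitors and integrins known as targets of Ets1 and its relatives, 5 were tested and 1 fell in EC-Rbpj-KO. This was Adamts1, a secreted protease that cleaves matrix proteoglycans, with 473 and 375, against 742 and 799 (log2 fold change -0.87, adjusted p = 0.0253, limma). The call was lost without EC-Rbpj-KO replicate 2 (adjusted p = 0.104) and without either wild type array of its set (0.106 and 0.186). Timp1 (log2 fold change 0.35, adjusted p = 0.314) and Itga5 (-0.31, adjusted p = 0.704) did not pass in that model.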

How the data were processed

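The 8 arrays were Affymetrix arrays of 1 colour, hybridised with RNA of yolk sacs taken at E9.5. The intensity values, 1 linear signal per probe set, were summarised with MAS5 and deposited by the authors (the scaling target is not given in the sources used here). Of the 45101 probe sets, 34958 were paired with 1 gene, 932 with several and 9211 with none, and only the first were used, taking for each gene the brightest probe set on average. Genes below the 40th percentile of mean signal were left out, and the other 10913 genes were modelled on the log2 scale in R 4.3.3 with limma 3.58.1 (4 groups in 1 fit, contrasts within each set, eBayes with trend, 4 residual and 7.37 prior degrees of freedom). Two-sided p-values were adjusted by the Benjamini-Hochberg method and read against 0.05, and intervals are at 95%. The code was tested on simulated data. With 2 arrays a group, an exact permutation test of a single gene cannot go below p = 0.333, so none was used, and the number of arrays limits the precision. Arrays of a group correlated at 0.986 to 0.99 over log2 signals. Likeness between genes is Pearson's r over 8 arrays after the mean of each set was subtracted. The genes and gene lists were chosen with earlier results of these data known. All 9 ETS genes are given. Of the lists of other ETS genes, partners and targets, the genes past the threshold are given and the 2 with the smallest p beyond them. The lists of cell type markers were only summarised where used, and not every marker past the threshold is named. Promoters came from RefSeq (GRCm38.p6). Alternatives were another filter or none, 16 added to every signal, other scalings, the mean of all probe sets, separate fits, embryo sex as a covariate, no trend, the t-test of the study's methods, and each array left out.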

Additional observations from a re-analysis of the deposited data

Results flagged for a closer look

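Of the ETS genes and the genes of the lists that passed the filter on low signal, Vwf was the one whose change differed between the models by the test of the difference itself. Its log2 fold change was 1.16 in EC-N1ICD (adjusted p = 0.0538) and -1.75 in EC-Rbpj-KO (adjusted p = 0.00252), and the log2 fold change in EC-N1ICD minus that in EC-Rbpj-KO was 2.91 (adjusted p = 0.00908, limma). Vwf had 216 and 241 in EC-N1ICD, compared with 117 and 89 in wild type. It had 48 and 56 in EC-Rbpj-KO, compared with 185 and 164 in wild type. Spib lay under the filter. In a fit with no filter its log2 fold change in EC-N1ICD minus that in EC-Rbpj-KO was 2.34 (adjusted p = 0.0384, limma), and with 16 added to every signal it was 1.63 (adjusted p = 0.047). Groups of 2 arrays are too small to test for a single array far from the rest.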

How the results depend on the processing

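With the filter at the 60th percentile Erg, Fli1, Elk3 and Etv6 fell out of the test and could not be called. The count of ETS genes called stayed at 0 in EC-N1ICD and for the difference between the models under all alternatives run, and at 0 in EC-Rbpj-KO under all but 2. There it was 1 with arrays centred on the median (Erg, log2 fold change 1.04, adjusted p = 0.0238), and 0 to 1 when each array was left out (1 without EC-Rbpj-KO replicate 2). The log2 fold change of Erg in EC-Rbpj-KO was positive in all 18 alternatives, from 0.63 to 1.31. Counts over all genes moved more. In EC-N1ICD they were 27 with the filter at the 60th percentile, 106 with arrays centred on the median, 118 with quantile normalization, 103 with a separate fit of each set, 15 with embryo sex as a covariate, 0 with the methods' t-test (939 before adjustment) and 123 with arrays centred on endothelial markers, and 7 to 140 when each array was left out. In EC-Rbpj-KO they were 266 with a separate fit, 1 with the methods' t-test (1313 before adjustment), 1473 with endothelial centring (139 higher and 1334 lower, with the median of all genes shifted by -0.27), and 147 to 628 when each array was left out. For the difference they were 17 with the mean of all probe sets, 71 with sex as a covariate, 3 with no trend and 83 with endothelial centring, and 5 to 80 when each array was left out. No called value reversed its direction. The cause of these moves was not tested. The sex term came only from the 2 EC-Rbpj-KO arrays, as sex differs within no other group. Fits with it are therefore no measure of sex in EC-N1ICD. The centring on endothelial markers was added after seeing the data. Separate fits and the t-test give no difference between the models. Of the calls in the other lists, those of Etv5, Cldn5, Sox17 and Vwf in EC-Rbpj-KO were lost only with the methods' t-test, Icam2 was lost in 13 of 19 alternatives, Junb in 12 of 18, Aplnr in 8 of 19 and Adamts1 in 5 of 19. No paired analysis was possible because the replicate numbers only name the arrays and no number in the sample names ties 1 mutant to 1 wild type array. Etv2, at 56 to 93, lies above the array medians of 38 to 51 but under the filter, and Spib lies below those medians on 6 arrays. At such low signals background limits the folds.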
